A study of Homo sapiens with 9 samples.

Results

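The collagen chains and laminin chains measured in MDA-MB-231 breast cancer cells were followed after siRNA against 2 forms of the metadherin gene MTDH. The genes were taken by name from the platform annotation: symbols of the form COL, digits, A, digits and symbols that start with LAMA, LAMB or LAMC and a digit, without COL13A1. This gave 53 genes, 42 collagens and 11 laminins, out of 90 probes among the 47231 on the array. One of the 11, LAMB2P1, is a pseudogene. Each gene was read by its brightest probe, the probe with the highest mean signal over the arrays used.

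MDA-MB-231 is an established line of invasive breast carcinoma cells that lack the estrogen receptor. Each knockdown group was transfected for 24 h with 200 pmol of siRNA, against wild-type MTDH in the WT knockdown (n = 3) and against an MTDH isoform, not described further in the labels, in the isoform knockdown (n = 3), called here WT siRNA and isoform siRNA too. The reference group is labelled control and is described as untreated, so effects of the transfection itself and of lower MTDH cannot be told apart in comparisons with it. Of its 3 deposited columns, replicate 2 equals the mean of the other 2 at all 47231 probes and was left out (n = 2). The groups share the line and the serum-containing medium; no source used here gives the siRNA sequences. The study asked how the 2 knockdowns change the profile of gene expression against untreated cells and against each other.

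The MTDH probe, ILMN_1810838, had a normalized log2 signal of 10.71 and 10.69 in the controls, 9.59, 9.79 and 9.90 in the WT knockdown and 9.87, 9.75 and 9.68 in the isoform knockdown. All 6 knockdown arrays lay below both controls; whether this probe reads the isoform is not given. Each array detected 20295 to 21761 probes, where detection is a deposited p-value under 0.05, and with 2 or 3 arrays a group all values have limited precision. Whether replicates were separate cultures is not stated; the p-values reflect the spread of these samples alone, which may be technical. Knockdown and control signals were tabulated in different row orders, and separate handling of the groups cannot be told apart from the siRNA. Of 8 genes known for high expression in this line, among them VIM and CD44, all 8 were detected on all 8 arrays, and the luminal markers ESR1, PGR, CDH1, FOXA1 and TFF1 were detected on none, with the luminal genes GATA3 and KRT19 detected on all 8. Of the 8 line markers, 1 rose and 4 fell with WT siRNA by limma (median -0.22). Of all probes tested, 26.9% rose and 30.1% fell there (median -0.03). With isoform siRNA 1 marker rose and 1 fell (median 0.05), beside 21.4% and 23.9% of all probes (median -0.02). Between the knockdowns 4 markers were higher and 0 lower with isoform siRNA (median 0.17), beside 19.8% and 17.8% (median 0.03). The part of these markers in the results was not tested.

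Collagens are trimers of chains that wind into a triple helix. Fibrillar types such as I and V form the fibres of connective tissue, type IV forms the sheet of the basement membrane, type VI forms beaded filaments around cells, and type VII anchors epithelium to the tissue beneath. Laminins are trimers of an alpha, a beta and a gamma chain that assemble the other layer of the basement membrane and bind integrins, and carcinoma cells meet both layers when they invade. A trimer needs a chain from each of its genes, so the chains of a type are described side by side.

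Promoter windows from RefSeq (assembly GRCh38.p14; 250 bases before to 50 after the gene start, on the gene's strand) were at hand for 20 of the 24 genes measured above background. The windows of 6 genes on which the results turn are shown. COL4A1 and COL4A2 are transcribed away from each other from starts 127 bases apart, their windows share 226 bases, and the COL4A1 window stands for both. LAMB1 and LAMC1 encode chains that join in 1 trimer, LAMB3 encodes a beta chain whose brightest probe rose, and COL6A2 and COL6A3 encode chains of type VI collagen. The brightest probe of COL6A2 read above control and that of COL6A3 below it. The COL6A2 p-values are no support for a rise, since it passed the filter through the knockdown groups. Other probes of LAMB3 and COL6A2 disagreed with the brightest, as given below. Capitals mark matches, on either strand, to the GC box GGGCGG, the CCAAT box CCAAT, the TATA box TATAAA and the AP-1 motif TGANTCA. The windows lie at chr13:110307108-110307407, chr7:108003112-108003411 and chr1:209652376-209652675 and chr2:237414115-237414414 on the minus strand, and at chr1:183023170-183023469 and chr21:46097862-46098161 on the plus strand.
COL4A1: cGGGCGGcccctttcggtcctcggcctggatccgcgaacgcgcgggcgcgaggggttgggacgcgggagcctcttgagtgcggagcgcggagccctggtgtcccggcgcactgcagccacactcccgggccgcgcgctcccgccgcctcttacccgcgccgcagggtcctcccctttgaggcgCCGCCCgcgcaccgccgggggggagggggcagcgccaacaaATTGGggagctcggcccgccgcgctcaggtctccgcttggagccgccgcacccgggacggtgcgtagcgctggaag
LAMB1: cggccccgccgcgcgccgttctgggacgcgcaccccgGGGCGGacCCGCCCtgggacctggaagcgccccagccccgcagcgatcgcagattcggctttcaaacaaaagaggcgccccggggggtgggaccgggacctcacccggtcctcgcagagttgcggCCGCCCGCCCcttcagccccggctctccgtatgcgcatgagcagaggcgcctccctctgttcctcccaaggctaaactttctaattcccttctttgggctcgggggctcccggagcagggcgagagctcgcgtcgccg
LAMC1: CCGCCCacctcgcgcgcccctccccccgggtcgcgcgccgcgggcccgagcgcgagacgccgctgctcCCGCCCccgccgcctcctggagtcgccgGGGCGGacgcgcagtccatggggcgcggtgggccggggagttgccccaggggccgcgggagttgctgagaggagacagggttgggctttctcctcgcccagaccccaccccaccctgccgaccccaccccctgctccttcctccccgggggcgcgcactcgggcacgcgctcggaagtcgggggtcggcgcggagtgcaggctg
LAMB3: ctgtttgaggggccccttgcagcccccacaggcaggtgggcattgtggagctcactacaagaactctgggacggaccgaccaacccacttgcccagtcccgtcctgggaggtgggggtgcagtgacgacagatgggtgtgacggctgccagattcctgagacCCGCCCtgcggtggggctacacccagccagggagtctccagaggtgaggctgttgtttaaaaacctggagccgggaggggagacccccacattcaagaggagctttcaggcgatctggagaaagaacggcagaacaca
COL6A2: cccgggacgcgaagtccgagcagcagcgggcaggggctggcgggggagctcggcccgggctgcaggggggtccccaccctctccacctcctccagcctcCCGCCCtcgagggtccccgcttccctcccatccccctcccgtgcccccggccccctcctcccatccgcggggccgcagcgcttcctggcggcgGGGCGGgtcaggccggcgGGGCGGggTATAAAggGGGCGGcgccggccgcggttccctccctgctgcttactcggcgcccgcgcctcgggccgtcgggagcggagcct
COL6A3: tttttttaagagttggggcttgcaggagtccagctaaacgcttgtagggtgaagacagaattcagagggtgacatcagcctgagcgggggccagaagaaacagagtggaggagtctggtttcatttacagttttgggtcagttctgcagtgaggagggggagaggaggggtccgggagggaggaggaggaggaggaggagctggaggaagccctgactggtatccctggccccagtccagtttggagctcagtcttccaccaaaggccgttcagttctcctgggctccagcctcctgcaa

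Of these windows, LAMB1 held 4 GC boxes, COL6A2 held 4, LAMC1 held 3, COL4A1 held 2, LAMB3 held 1 and COL6A3 held 0. The COL6A2 window also had a TATA box that begins 32 bases before the start, and the COL4A1 window a CCAAT box that begins 26 bases before it. No base lay in matches to 2 of these motifs in any of the 6 windows. Among all 20 windows, 16 held a GC box, 3 a CCAAT box, 2 a TATA box and 0 an AP-1 match. Among all 35116 RefSeq windows of 300 bases, 45% held the first, 34.6% the second, 11.5% the third and 7.71% the fourth. A match is a string of letters in this window and describes no binding.

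Of the 53 genes, 24 stood above background, meaning that the brightest probe was detected on every array of at least 1 group. These were 19 of 42 collagens and 5 of 11 laminins, and 18 of the 24 were detected on all 8 arrays. The other 6 crossed the detection limit between groups. COL4A4 was detected in controls and in the isoform knockdown and on 0 of 3 WT knockdown arrays. COL11A2 was detected in controls only. COL20A1 was detected on 0 of 2 control arrays, 3 of 3 WT knockdown arrays and 1 of 3 isoform knockdown arrays. COL1A1 and COL6A2 were each detected on 1 of 2 control arrays and on all knockdown arrays, and COL27A1 on every array except 1 of the WT knockdown. A gene that entered through the group where it is high had to differ between groups. For such a gene, an adjusted p against a group that did not pass is no support for a change. The same holds for genes of the other lists below.

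The remaining 29 genes gave no group above background. The brightest probe was detected on 0 of 8 arrays for 20 of them: COL2A1, COL3A1, COL4A3, COL4A6, COL5A3, COL6A6, COL9A1, COL9A3, COL10A1, COL19A1, COL21A1, COL22A1, COL24A1, COL26A1, COL28A1, LAMA1, LAMA4, LAMB4, LAMC3 and LAMB2P1. Another 9 were detected on some arrays, COL6A5 on 4 of 8, COL23A1 on 2 of 8 and COL1A2, COL5A2, COL11A1, COL14A1, COL15A1, COL25A1 and LAMA2 on 1 of 8 each. For COL1A2, the second chain of type I collagen, a dimmer probe was detected in both controls. That probe had means of 4.98 in control, 4.47 with WT siRNA and 4.59 with isoform siRNA, at least 1.07-fold and 1.08-fold lower (limma, adjusted p = 0.00749 and 0.034). It passed the filter through the controls alone, where it is high, so these p-values are no support for a fall. The brightest probes of these 29 genes, among them that of the fibroblast collagen COL3A1, were not tested.

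**Figure D1:**
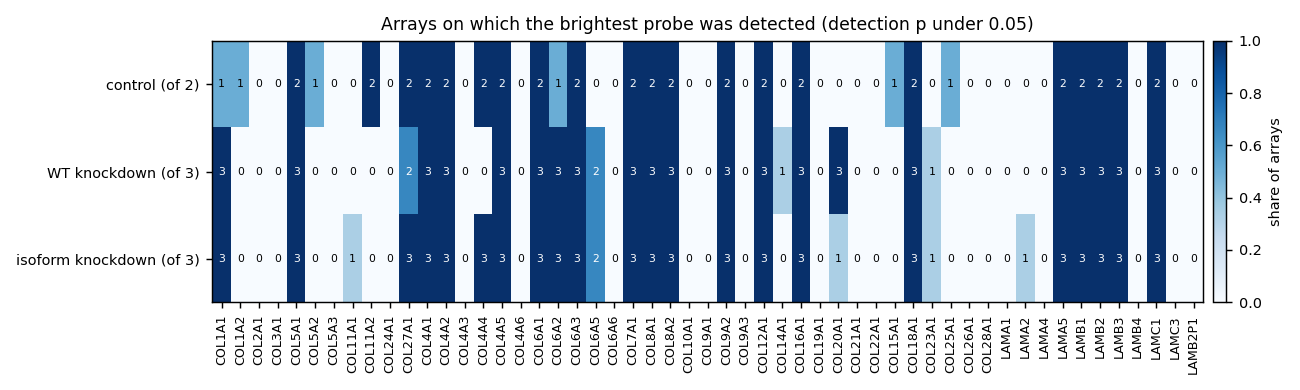
Number of arrays of each group (rows) on which the brightest probe of each of the 53 genes (columns, by type of chain) was detected at a detection p under 0.05; colour gives the share of the group's arrays. The 18 genes dark in all 3 rows were detected on all 8 arrays, and 20 genes show 0 in every row.

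Changes below are differences in normalized log2 signal ± SE from a limma fit over all 20680 probes above background, with Benjamini-Hochberg adjusted p over those probes and a call at 0.05. Levels of a probe are compared between groups and never with another probe. With WT siRNA 18 of 24 genes were called against control, 12 lower and 6 higher, while 56.9% of all probes were called, 30.1% lower and 26.9% higher. With isoform siRNA 10 of 24 were called, 4 lower and 6 higher, against 45.2% of all probes, 23.9% lower and 21.4% higher. Between the knockdowns 13 of 24 were called, 11 higher and 2 lower with isoform siRNA, against 37.6% of all probes, 19.8% higher and 17.8% lower. Called with a change of at least 0.58 were 7 genes lower and 3 higher with WT siRNA (16.1% and 15.1% of all probes), 1 lower and 4 higher with isoform siRNA (9.76% and 10.2%), and 0 lower and 3 higher between the knockdowns (7.03% and 5.54%). Among these are COL4A4 with WT siRNA and between the knockdowns, COL1A1 with WT siRNA and COL6A2 with both siRNAs. The counts of all calls also hold COL20A1 and COL27A1 with WT siRNA and COL11A2 with isoform siRNA. Each of these calls is against a group that did not pass the filter and is no support for a change. The median change over the 24 genes was -0.29, 0.09 and 0.34 in the 3 comparisons, and over all probes -0.03, -0.02 and 0.03. The groups did not overlap at 22, 15 and 19 of the 24 genes, against 71.8%, 66.3% and 48.9% of all probes. The 2 comparisons with control share the control arrays, and the last shares the WT knockdown arrays with the first.

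Without control replicate 1, with 1 control left, fewer genes were called with WT siRNA, and fewer of all probes too. Over the 18 genes detected on all 8 arrays, 10 were called lower and 3 higher with WT siRNA, 2 lower and 5 higher with isoform siRNA, and 10 higher and 1 lower between the knockdowns. The share called among all probes detected on all 8 arrays was not computed, so these counts stand without a reference. Scaling arrays to the median of all probes in place of quantile normalization shifted the median change of all probes to -0.24 with WT siRNA and -0.18 with isoform siRNA. It gave 12 genes lower and 2 higher with WT siRNA, where 7855 probes were lower and 2849 higher in place of 6218 and 5553. It gave 4 lower and 2 higher with isoform siRNA, with 5890 probes lower and 2126 higher in place of 4936 and 4417. In bulk RNA, fewer cells of a type and less RNA per cell cannot be told apart.

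**Figure D2:**
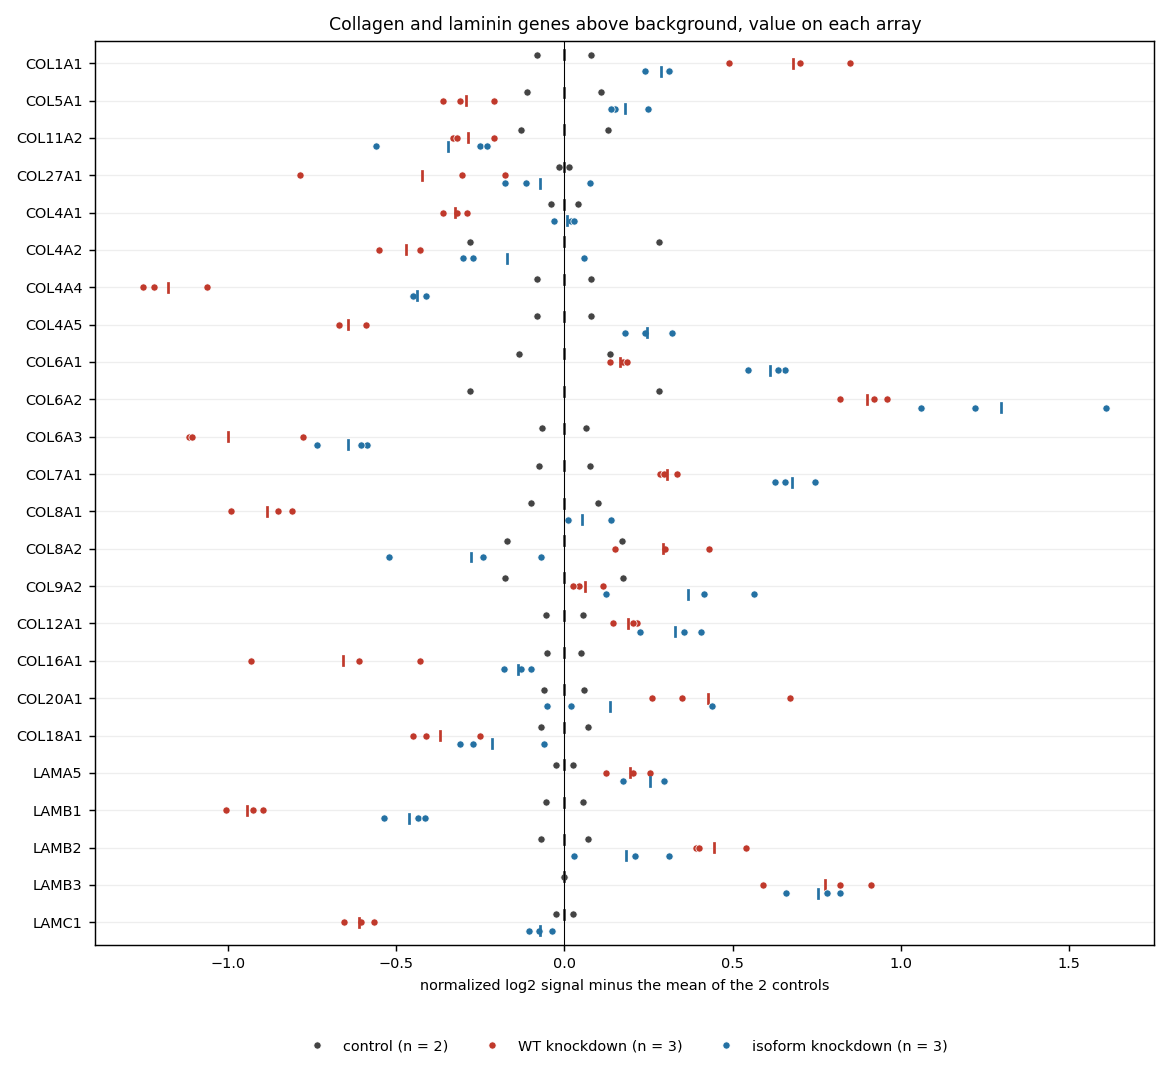
Normalized log2 signal of the 24 genes above background on each array, minus the mean of the 2 controls (points, 1 per array; vertical ticks, group means; control n = 2, each knockdown n = 3). For LAMB1 the WT knockdown arrays lie lowest, the isoform knockdown arrays between them and the controls; for COL8A1 and LAMC1 only the WT knockdown arrays lie far from the controls, and for LAMB3 all 6 knockdown arrays lie above both controls.

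Laminin chains moved in different directions. LAMB1, the beta 1 chain of widely expressed laminins, read 9.11 and 9.22 in controls, 8.24, 8.16 and 8.27 with WT siRNA and 8.63, 8.73 and 8.75 with isoform siRNA. The 3 groups did not overlap, with the WT knockdown lowest. LAMB1 fell by 0.94 ± 0.09 with WT siRNA, to 52.1% of control (limma fit, adjusted p = 2.46e-05), and by 0.46 ± 0.09 with isoform siRNA, to 72.8% (adjusted p = 0.00283). The difference between the knockdowns was 0.48 ± 0.08 (adjusted p = 0.0014). LAMC1, the gamma 1 chain that joins beta 1, read 10.84 and 10.79 in controls, 10.21, 10.25 and 10.16 with WT siRNA and 10.71, 10.74 and 10.78 with isoform siRNA. It fell by 0.61 ± 0.08 with WT siRNA, to 65.6% (adjusted p = 0.000216). With isoform siRNA its value was -0.07 ± 0.08, with a 95% interval from -0.26 to 0.12 (adjusted p = 0.518), and it was 0.54 ± 0.07 higher there than with WT siRNA (adjusted p = 0.000528). Under median scaling the change of LAMC1 with WT siRNA was -0.94 and that of LAMB1 with isoform siRNA -0.72.

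LAMB3, the beta 3 chain of the laminin that anchors epithelium, read 10.07 and 10.07 in controls, 10.89, 10.98 and 10.66 with WT siRNA and 10.85, 10.89 and 10.73 with isoform siRNA. All 6 knockdown arrays were above both controls and the 2 knockdowns overlapped. By its brightest probe LAMB3 rose by 0.78 ± 0.11 with WT siRNA (limma fit, adjusted p = 0.000258) and by 0.76 ± 0.11 with isoform siRNA (adjusted p = 0.000587). The knockdowns differed by -0.02 ± 0.10, with a 95% interval from -0.24 to 0.20. Under median scaling the rise with WT siRNA was 0.40 and not called (adjusted p = 0.0612), or 0.64 above the median of all probes. The dimmer LAMB3 probes were not called against control, as given below. Averaged over all its detected probes, LAMB3 had 0.21 with WT siRNA and 0.31 with isoform siRNA.

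LAMA5, the alpha 5 chain that pairs with beta 1 or beta 2 and gamma 1, read 11.62 and 11.67 in controls, 11.90, 11.77 and 11.85 with WT siRNA and 11.94, 11.82 and 11.94 with isoform siRNA. Every knockdown array lay above the controls, by a small margin. Its value was 0.20 ± 0.09 with WT siRNA, called under 5 of 21 alternatives, the fit over all 9 columns among them (limma fit, adjusted p = 0.0824). It rose by 0.26 ± 0.09 with isoform siRNA (adjusted p = 0.0384), a call lost without control replicate 1 (0.23), control replicate 3 (0.28), isoform replicate 1 (0.24) or isoform replicate 3 (0.24). LAMB2, the beta 2 chain known from muscle and kidney, rose by 0.45 ± 0.11 with WT siRNA (adjusted p = 0.00617) and had 0.19 ± 0.11 with isoform siRNA (adjusted p = 0.187). Its call was lost under median scaling (0.12) and without control replicate 1 (0.38, adjusted p = 0.0578). Between the knockdowns it had -0.26 ± 0.10, which passed under 7 of 21 alternatives, the omission of isoform replicate 2 among them (-0.32, adjusted p = 0.0445). Under median scaling LAMA5 had 0.04 with isoform siRNA.

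The 4 type IV collagen chains above background read lower with WT siRNA, and COL4A4 was not detected there. COL4A1, an alpha 1 chain of the ubiquitous basement membrane network, fell by 0.32 ± 0.08 (limma fit, adjusted p = 0.00808), and COL4A2, its partner from the shared promoter, by 0.47 ± 0.17 (adjusted p = 0.0349). With isoform siRNA COL4A1 had a value of 0.01 ± 0.08, with a 95% interval from -0.18 to 0.19, and COL4A2 -0.17 ± 0.17, from -0.55 to 0.20. COL4A1 was 0.33 ± 0.07 higher with isoform than with WT siRNA (adjusted p = 0.00701), while COL4A2 differed by 0.30 ± 0.15 without a call (adjusted p = 0.145). The COL4A2 controls stood 7.87 and 7.31, wide apart. Its change was -0.19 without control replicate 1 (adjusted p = 0.356) and -0.75 without control replicate 3; the call was also lost without WT replicate 1 (-0.43), 2 (-0.49) or 3 (-0.49). COL4A1 had -0.28 without control replicate 1 (adjusted p = 0.0656), and under median scaling 0.39 between the knockdowns without a call (adjusted p = 0.0742). Under that scaling the WT siRNA values of COL4A1 and COL4A2 were -0.66 and -0.76.

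COL4A5, an X-linked chain of the network of kidney and other basement membranes, read 7.54 and 7.38 in controls, 6.79, 6.79 and 6.87 with WT siRNA and 7.64, 7.70 and 7.78 with isoform siRNA. The WT knockdown arrays were the lowest and the isoform knockdown arrays the highest. COL4A5 fell by 0.64 ± 0.09 with WT siRNA, to 64.0% (limma fit, adjusted p = 0.000302), had 0.25 ± 0.09 with isoform siRNA (adjusted p = 0.055, called under 4 of 21 alternatives), and differed between them by 0.89 ± 0.08 (adjusted p = 6.39e-05). COL4A4, a chain known to assemble with alpha 3 and alpha 5, read 5.92 and 5.76 in controls and 5.39, 5.39 and 5.43 with isoform siRNA. On the WT knockdown arrays it was not detected, at 4.62, 4.59 and 4.78. It was at least 1.94-fold lower with WT siRNA than in control (adjusted p = 1.06e-05), with means of 5.84 and 4.66, and at least 1.43-fold higher with isoform than with WT siRNA (adjusted p = 0.000206). COL4A4 passed the filter through the control and isoform knockdown groups, where it is high, so these p-values are no support for a difference from the WT knockdown. With isoform siRNA it fell by 0.44 ± 0.10 against control (adjusted p = 0.00534), or by 0.35 without control replicate 1 (adjusted p = 0.0583). On uncorrected signals the COL4A4 differences were -0.59, -0.23 and 0.36.

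By their brightest probes, the chains of type VI collagen moved apart. COL6A1, the alpha 1 chain, read 7.08 and 7.35 in controls, 7.39, 7.35 and 7.40 with WT siRNA and 7.87, 7.85 and 7.76 with isoform siRNA. It was highest on all 3 isoform knockdown arrays, with a rise of 0.61 ± 0.10 over control (limma fit, adjusted p = 0.00114) and of 0.45 ± 0.09 over the WT knockdown (adjusted p = 0.00403). With WT siRNA it had 0.17 ± 0.10 (adjusted p = 0.178). COL6A2, the alpha 2 chain, read 5.20 and 4.64 in controls, the second of them not detected. It read 5.88, 5.84 and 5.74 with WT siRNA and 6.53, 6.14 and 5.98 with isoform siRNA, all above both controls. COL6A2 rose by 0.90 ± 0.19 with WT siRNA (adjusted p = 0.00248) and by 1.30 ± 0.19 with isoform siRNA (adjusted p = 0.000541). It passed the filter through the knockdown groups, where it is high, so these p-values are no support for a rise.

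COL6A3, the alpha 3 chain and the longest of this type, read 6.65 and 6.78 in controls, 5.94, 5.60 and 5.61 with WT siRNA and 6.13, 5.98 and 6.11 with isoform siRNA. Both knockdowns lay below the controls. COL6A3 fell by 1.00 ± 0.12 with WT siRNA (limma fit, adjusted p = 0.000102), and by 0.64 ± 0.12 with isoform siRNA, to 64.0% (adjusted p = 0.00233). The knockdowns differed by 0.36 ± 0.11 (adjusted p = 0.0274), a call lost without WT replicate 2 or 3 (0.30 each) and without isoform replicate 1 (0.33) or 3 (0.34). The sizes for COL6A2 and COL6A3 depended on the background correction, being 0.45 and -0.61 with WT siRNA and 0.68 and -0.41 with isoform siRNA when the signals were used uncorrected. Under median scaling COL6A1 had 0.41 with isoform siRNA without a call (adjusted p = 0.0684), or 0.59 above the median of all probes, and its value with WT siRNA was -0.10. Between the knockdowns COL6A2 had 0.40 ± 0.17 without a call (adjusted p = 0.0863), and passed under 5 of 21 alternatives, with 0.24 on uncorrected signals (adjusted p = 0.0403) and 0.46 under median scaling (adjusted p = 0.0299).

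COL8A1, a short-chain collagen of vessel walls and the eye, read 11.10 and 10.90 in controls, 10.15, 10.01 and 10.19 with WT siRNA and 11.01, 11.01 and 11.14 with isoform siRNA. The WT knockdown lay below all other arrays, and the isoform knockdown overlapped the controls. COL8A1 fell by 0.88 ± 0.10 with WT siRNA, to 54.2% of control (limma fit, adjusted p = 8.48e-05). With isoform siRNA it had 0.05 ± 0.10, with a 95% interval from -0.18 to 0.28, and it was 0.93 ± 0.09 higher there than with WT siRNA (adjusted p = 8.87e-05). Its partner COL8A2 had 0.30 ± 0.16 with WT siRNA and -0.28 ± 0.16 with isoform siRNA, neither called (adjusted p = 0.133 and 0.174). Between the knockdowns COL8A2 was lower with isoform siRNA, at -0.57 ± 0.14 (adjusted p = 0.0103).

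COL7A1, the collagen of anchoring fibrils, read 10.05 and 10.20 in controls, 10.46, 10.41 and 10.42 with WT siRNA and 10.87, 10.75 and 10.78 with isoform siRNA. The groups did not overlap and the isoform knockdown was highest. COL7A1 rose by 0.31 ± 0.09 with WT siRNA (limma fit, adjusted p = 0.015), a direction that turned under median scaling (-0.05) and a call lost without control replicate 1 (0.23, adjusted p = 0.128). With isoform siRNA it rose by 0.68 ± 0.09 (adjusted p = 0.000363), or by 0.40 under median scaling (adjusted p = 0.078), and it was 0.37 ± 0.08 higher there than with WT siRNA (adjusted p = 0.00594).

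Among fibrillar collagens, COL5A1, a chain that sets the width of fibrils, fell by 0.30 ± 0.10 with WT siRNA (limma fit, adjusted p = 0.0282) and had 0.18 ± 0.10 with isoform siRNA (adjusted p = 0.164). The knockdowns differed by 0.48 ± 0.09 (adjusted p = 0.00262). The fall with WT siRNA lost its call without control replicate 1 (-0.19), WT replicate 2 (-0.26) or WT replicate 3 (-0.29), and was -0.64 under median scaling (adjusted p = 0.00203). COL1A1, the alpha 1 chain of type I collagen, read 5.03 and 4.87 in controls, the second not detected, 5.80, 5.44 and 5.65 with WT siRNA and 5.26, 5.26 and 5.19 with isoform siRNA. All 6 knockdown arrays lay above both controls, the WT siRNA arrays highest. Since COL1A1 passed the filter through the knockdown groups, its p-values against control are no support for a rise. COL1A1 rose by 0.68 ± 0.12 with WT siRNA (adjusted p = 0.000776), or by 0.32 on uncorrected signals, and had 0.29 ± 0.12 with isoform siRNA (adjusted p = 0.0685), with -0.39 ± 0.10 between the knockdowns (adjusted p = 0.0142). That last value was -0.19 on uncorrected signals and lost its call under median scaling (-0.33, adjusted p = 0.138). The isoform value passed under 4 of 21 alternatives, the omission of WT replicate 2 among them (0.29, adjusted p = 0.0416).

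COL27A1 and COL11A2 lay at the detection limit. COL27A1, a fibrillar chain of cartilage, had -0.43 ± 0.16 with WT siRNA (limma fit, adjusted p = 0.0497), a call lost under 13 of 21 alternatives. It was lost without any array other than WT replicate 1, with values from -0.24 without WT replicate 3 to -0.49 without WT replicate 2, and without WT replicate 1 it differed between the knockdowns by 0.47 (adjusted p = 0.0396). COL11A2 was at least 1.14-fold lower with isoform siRNA than in control (adjusted p = 0.0487), with means of 4.71 and 5.06, a call lost under 15 of 21 alternatives. It was kept only without control replicate 1 or isoform replicate 3 among the single-array omissions, and ranged from -0.21 without control replicate 3 to -0.40 without isoform replicate 2 where it was lost. With WT siRNA COL11A2 had -0.29 ± 0.13 (adjusted p = 0.0793), which passed under 3 of 21 alternatives, among them without isoform replicate 1 (adjusted p = 0.0468). COL11A2 passed the filter through the controls alone, where it is high, so its p-values against control are no support for a fall. COL27A1 did not pass in the WT knockdown, so its p-values against that group are no support for a difference.

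Of the fibril-associated collagens, which sit on the surface of fibrils, COL16A1 read 6.63 and 6.53 in controls, 5.97, 6.15 and 5.65 with WT siRNA and 6.40, 6.48 and 6.45 with isoform siRNA. The WT knockdown arrays were the lowest and the most spread. COL16A1 fell by 0.66 ± 0.13 with WT siRNA, to 63.4% (limma fit, adjusted p = 0.00225), had -0.14 ± 0.13 with isoform siRNA (adjusted p = 0.427), and differed between them by 0.52 ± 0.12 (adjusted p = 0.00775). On uncorrected signals the first and last were -0.40 and 0.31. COL12A1 had 0.19 ± 0.09 with WT siRNA (adjusted p = 0.107) and rose by 0.33 ± 0.09 with isoform siRNA (adjusted p = 0.0165). That rise was 0.06 under median scaling, 0.27 without control replicate 3 (adjusted p = 0.117), and turned to -0.08 when the gene's dimmer probe was averaged in. COL9A2, a cartilage chain, was called in none of the 3 comparisons, with 0.06 ± 0.14, 0.36 ± 0.14 and 0.31 ± 0.13. The second of these passed under 4 of 21 alternatives, among them without control replicate 1 (0.54) or isoform replicate 1 (0.48), and the third under 1, without isoform replicate 1 (0.43).

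COL20A1 was at least 1.21-fold higher with WT siRNA than in control (limma fit, adjusted p = 0.0497), with means of 5.14 and 4.71, and the call was lost under 11 of 21 alternatives. Among these were the omission of either control (0.49 without replicate 1 and 0.37 without replicate 3), of WT replicate 2 (0.46) or 3 (0.31) and of isoform replicate 3 (0.43). Without isoform replicate 1 it differed between the knockdowns by -0.44 (adjusted p = 0.0314). COL20A1 passed the filter through the WT knockdown alone, where it is high, so its p-values are no support for a difference. COL18A1, the multiplexin that yields the angiogenesis inhibitor endostatin, fell by 0.37 ± 0.11 with WT siRNA (adjusted p = 0.0162), or by 0.30 without control replicate 3 (adjusted p = 0.118). With isoform siRNA COL18A1 had -0.21 ± 0.11 (adjusted p = 0.141). Under median scaling both were larger, at -0.69 and -0.48, and the second was called (adjusted p = 0.0322). Between the knockdowns, quantile normalized, it differed by 0.16 ± 0.10 (adjusted p = 0.236).

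**Figure D3:**
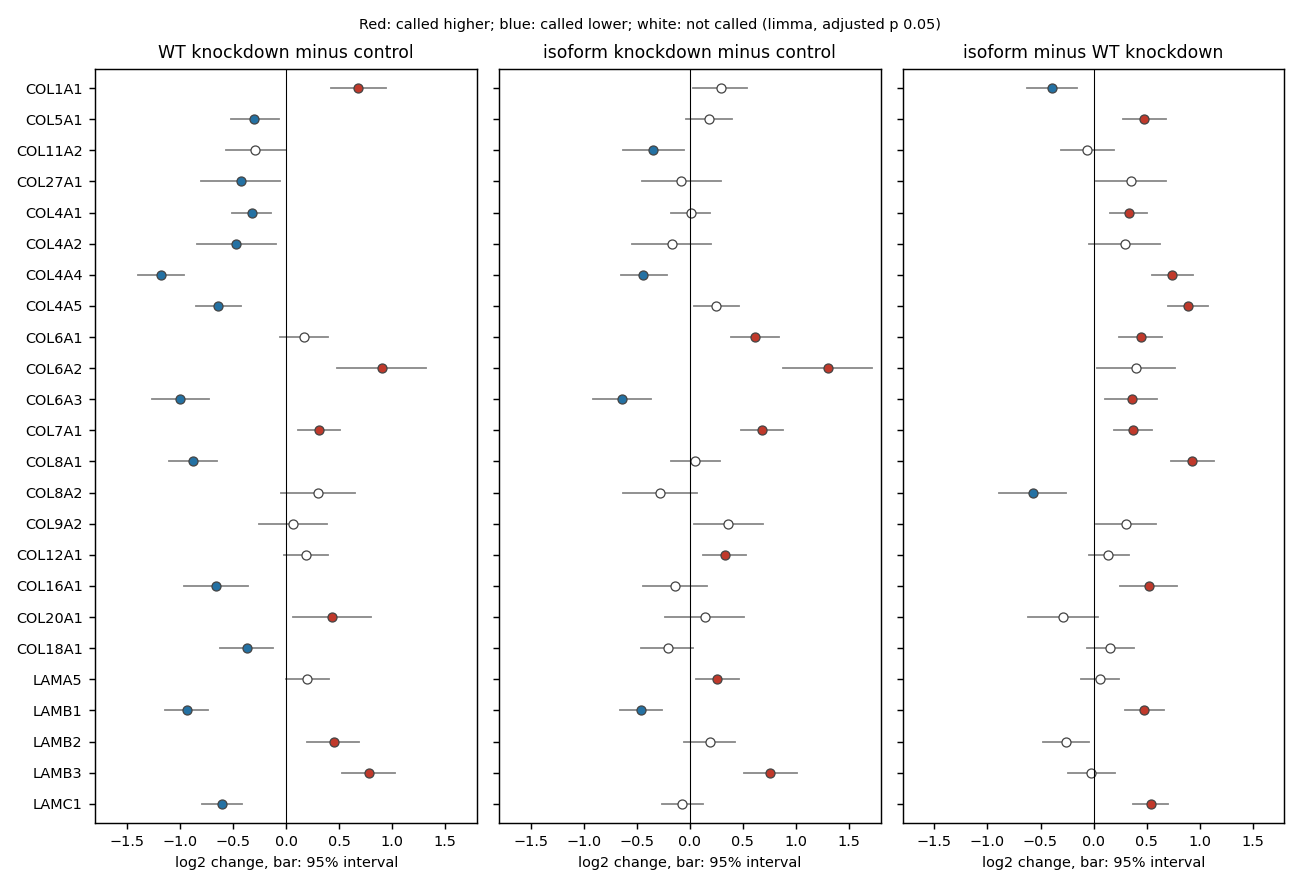
Log2 change of the 24 genes in the 3 comparisons (points; bars, 95% intervals of the limma fit over 2 control, 3 WT knockdown and 3 isoform knockdown arrays; red, called higher; blue, called lower; white, not called). In the first panel 12 genes are called lower, from COL4A4 at -1.18 to COL5A1 at -0.30; in the last panel 11 genes are called higher with isoform siRNA, with COL8A1 at 0.93 and COL4A5 at 0.89, and COL1A1 and COL8A2 are called lower.

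Of the 53 genes, 24 had several probes, and 7 of these had more than 1 probe above background. The 3 COL8A1 probes had -0.88, -1.05 and -0.63 with WT siRNA, each called. With isoform siRNA 2 of them had 0.05 and -0.06, while ILMN_2246563, annotated to another RefSeq transcript, rose by 0.51 ± 0.10 (limma fit, adjusted p = 0.00264). The second LAMB1 probe fell by 1.36 ± 0.16 and 1.02 ± 0.16 in the WT and isoform knockdowns, more than the brightest probe. The second COL4A5 probe had -0.63 with WT siRNA and 0.17 with isoform siRNA, near the -0.64 and 0.25 of the brightest, and the second COL6A3 probe -0.53 and -0.37; the WT siRNA values of both were called and the isoform siRNA values were not.

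Probes of the other 3 genes disagreed. For LAMB3 the 2 dimmer probes had 0.20 and -0.34 with WT siRNA and 0.28 and -0.10 with isoform siRNA, with 0 of these 4 values called. For COL6A2, ILMN_1809928 rose by 0.57 ± 0.14 and 0.76 ± 0.14, whereas ILMN_1765017, annotated to another transcript, had -0.02 and 0.13. The dimmer COL12A1 probe had -0.42 with WT siRNA without a call and was detected on 0 of 3 isoform knockdown arrays. Averaging all detected probes left LAMB3 at 0.21 with WT siRNA and 0.31 with isoform siRNA, both called (limma fit, adjusted p = 0.0449 and 0.0116).

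**Figure D4:**
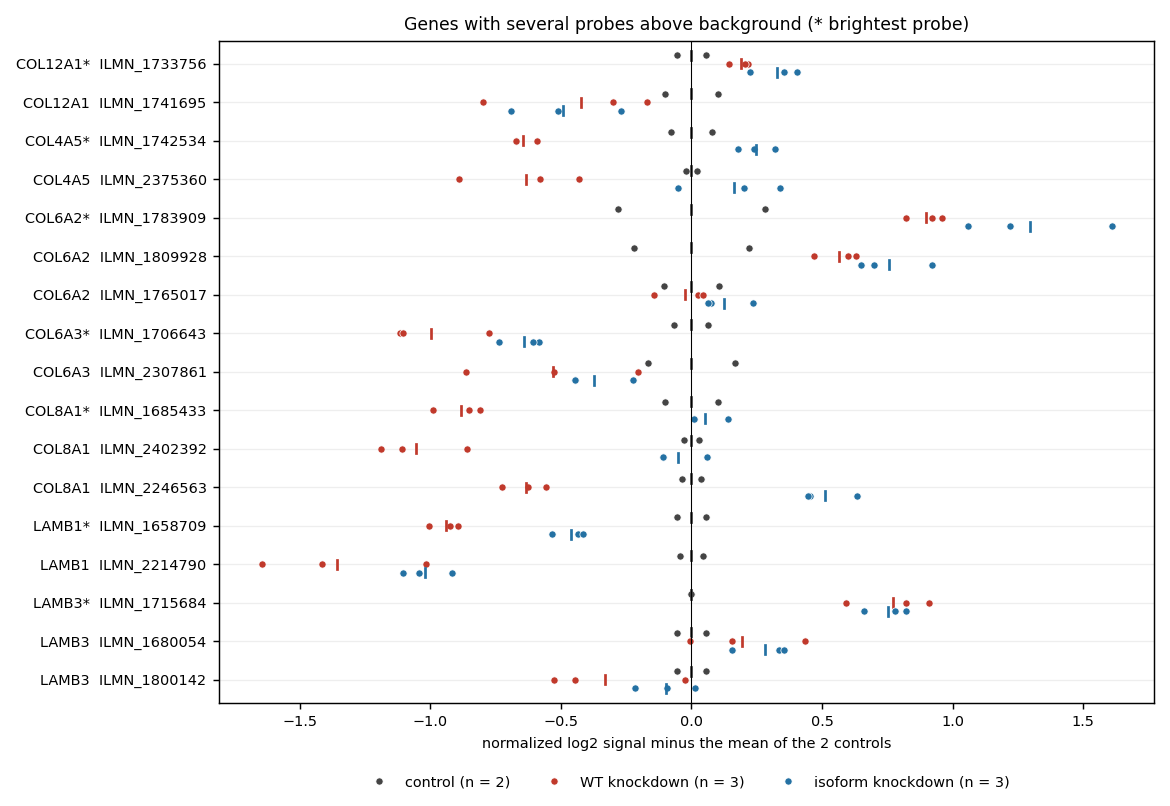
Normalized log2 signal of each probe above background for the 7 genes with several such probes, minus the mean of the 2 controls (points, 1 per array; vertical ticks, group means; asterisk, brightest probe of the gene). All 3 COL8A1 probes are low with WT siRNA and 1 of them is high with isoform siRNA; of the LAMB3 probes the brightest lies farthest above the controls.

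Of 30 genes for enzymes and chaperones that modify, fold and crosslink collagen, 22 were above background. With WT siRNA 11 rose and 4 fell, where 26.9% of all probes rose and 30.1% fell, and their median was 0.25 beside -0.03 for all probes. Under median scaling 3 rose and 5 fell, with a median of 0.04 beside -0.24. With isoform siRNA 13 rose and 2 fell, where 21.4% of all probes rose and 23.9% fell, with a median of 0.31 beside -0.02. Under median scaling 4 rose and 2 fell, with a median of 0.12 beside -0.18. The prolyl hydroxylase subunits P4HA1 and P4HA2, which make the helix stable, rose by 0.57 ± 0.09 and 0.60 ± 0.09 with WT siRNA and by 1.12 ± 0.09 and 0.67 ± 0.09 with isoform siRNA. LOX, a crosslinking oxidase, rose by 0.93 ± 0.12 with isoform siRNA, and MIA3, which loads collagen into transport carriers, by 0.60 ± 0.10. LOXL1, another oxidase of this family, was at least 1.83-fold lower with WT siRNA, where no array detected it, with means of 5.75 in control and 4.56. LOXL4 fell by 0.53 ± 0.08 with WT siRNA and was 1.02 ± 0.08 higher with isoform than with WT siRNA (limma fit, adjusted p = 2e-05). Between the knockdowns 9 of the 22 were higher and 2 lower with isoform siRNA, where 19.8% of all probes were higher and 17.8% lower. The lysyl hydroxylase PLOD1 was higher by 0.62 ± 0.09, P4HA1 by 0.55 ± 0.08, and the lysyl hydroxylase PLOD3 lower, at -0.46 ± 0.08.

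Of 18 listed receptors for collagen and laminin, 13 were above background. With WT siRNA 2 rose and 5 fell (median -0.22), where 26.9% of all probes rose and 30.1% fell. Under median scaling 0 rose and 7 fell (median -0.53), where 2849 of 20680 probes rose and 7855 fell (median -0.24). With isoform siRNA 2 rose and 4 fell (median -0.11), where 21.4% of all probes rose and 23.9% fell. Under median scaling 1 rose and 4 fell (median -0.21), where 2126 of 20680 probes rose and 5890 fell (median -0.18). ITGA6, the alpha 6 integrin subunit of laminin receptors, fell by 1.34 ± 0.11 with WT siRNA and by 0.98 ± 0.11 with isoform siRNA (limma fit, adjusted p = 1.03e-05 and 0.000144). With WT siRNA the integrin subunits ITGA3 and ITGB1 fell by 0.80 ± 0.13 and 0.61 ± 0.10, and the proteoglycan SDC1 by 0.70 ± 0.10. With isoform siRNA SDC1 fell by 0.52 ± 0.10, while the proteoglycan SDC4 rose by 0.84 ± 0.09 and the collagen receptor kinase DDR1 by 0.57 ± 0.09. Between the knockdowns 6 of the 13 were higher and 1 lower with isoform siRNA, where 19.8% of all probes were higher and 17.8% lower. SDC4 was higher by 0.39 ± 0.08, ITGA3 by 0.41 ± 0.11, ITGA6 by 0.36 ± 0.10 and ITGA11 by 0.34 ± 0.10.

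Of 14 other basement membrane genes, 7 were above background, and the linker NID1 and the matrix protein SPARC were not. With WT siRNA 1 rose and 5 fell (median -0.53), beside 26.9% and 30.1% of all probes. Under median scaling the counts were the same and the median was -0.76, beside -0.24 for all probes. With isoform siRNA 1 rose and 2 fell (median 0.11), beside 21.4% and 23.9%; under median scaling that median was -0.13, beside -0.18 for all probes. PXDN, the peroxidase that crosslinks type IV collagen, fell by 0.94 ± 0.15 and 0.86 ± 0.15 in the WT and isoform knockdowns (limma fit, adjusted p = 0.000626 and 0.00173). HSPG2, which encodes perlecan, was detected in controls only and was at least 1.09-fold and 1.10-fold lower, with means of 5.01, 4.47 and 4.70 in control, WT and isoform arrays. It passed the filter through the controls alone, where it is high. TINAGL1 rose by 0.72 ± 0.13 and 0.52 ± 0.13. FRAS1 fell by 0.75 ± 0.14 with WT siRNA. AGRN, which encodes agrin, had -0.27 ± 0.11 with isoform siRNA without a call. Between the knockdowns 2 of the 7 were higher and 0 lower with isoform siRNA, beside 19.8% and 17.8% of all probes. FRAS1 was higher by 0.86 ± 0.13 and FBLN1, a fibulin, by 1.07 ± 0.16.

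Of 22 other matrix glycoprotein genes, 13 were above background. With WT siRNA 4 rose and 7 fell (median -0.28), beside 26.9% and 30.1% of all probes, and with isoform siRNA 4 rose and 4 fell (median -0.16), beside 21.4% and 23.9%. Under median scaling 1 rose and 7 fell with WT siRNA (median -0.63, beside -0.24 for all probes). With isoform siRNA that scaling gave 4 higher and 5 lower (median -0.34, beside -0.18). CCN1, a matricellular protein, rose by 0.97 ± 0.10 and 0.69 ± 0.10 in the WT and isoform knockdowns (limma fit, adjusted p = 4.38e-05 and 0.000661), and ECM1 fell by 0.92 ± 0.11 and 0.61 ± 0.11. EMILIN2 and MATN2 fell by 0.86 ± 0.11 and 0.70 ± 0.10 with WT siRNA. TGFBI, a TGF-beta-induced adhesion protein, rose by 0.88 ± 0.08 with isoform siRNA, and MATN3 by 0.57 ± 0.15. Between the knockdowns 4 were higher and 2 lower with isoform siRNA, beside 19.8% and 17.8% of all probes. Among the higher were EMILIN2 at 0.71 ± 0.10, TGFBI at 0.44 ± 0.08 and MATN2 at 0.35 ± 0.09. FBLN5, a fibulin detected with WT siRNA only, was at least 1.24-fold lower with isoform siRNA (adjusted p = 0.00836), with means of 4.70 and 5.18. It passed the filter through the WT knockdown alone, so this p-value is no support for the difference.

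Fibroblasts, endothelium and leukocytes also make collagens and laminins, and their markers were read beside these results. The summed level of a list takes in its undetected probes too, so part of each sum is background. Of 7 fibroblast markers 4 were detected on no array, PDGFRA, THY1, FAP and TCF21, and the summed normalized level of the list, as log2, ran from 8.22 to 8.26 in controls, 7.83 to 7.84 with WT siRNA and 8.11 to 8.26 with isoform siRNA. Of the other 3, PDGFRB fell by 1.32 with WT siRNA (limma fit, adjusted p = 1.85e-05), while DCN and LUM had 0.31 and 0.46 without a call (adjusted p = 0.125 and 0.0555). The median of these 3 was 0.31, and under median scaling over the probes above background 2 of them were called higher and 1 lower. With isoform siRNA 1 of the 3 was called higher and 0 lower, with a median of 0.31. Of 8 endothelial markers 5 were detected on no array, CDH5, VWF, TEK, KDR and ERG, with summed levels from 8.94 to 8.96, 9.00 to 9.09 and 8.84 to 8.89. Another 2 were detected on all 8 arrays. Of these, 1 was called higher and 1 lower with WT siRNA, and 0 higher and 1 lower with isoform siRNA. Of 5 measured leukocyte markers CD3E and ITGAX were detected on no array, and the sums ran from 10.41 to 10.45, 10.04 to 10.21 and 10.41 to 10.46. Another 2 were detected on all 8 arrays. Of these, 1 was called higher and 1 lower with WT siRNA, and neither with isoform siRNA. Of all probes, 26.9% were called higher and 30.1% lower with WT siRNA, and 21.4% and 23.9% with isoform siRNA. The part of these markers in the results was not tested.

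**Figure D5:**
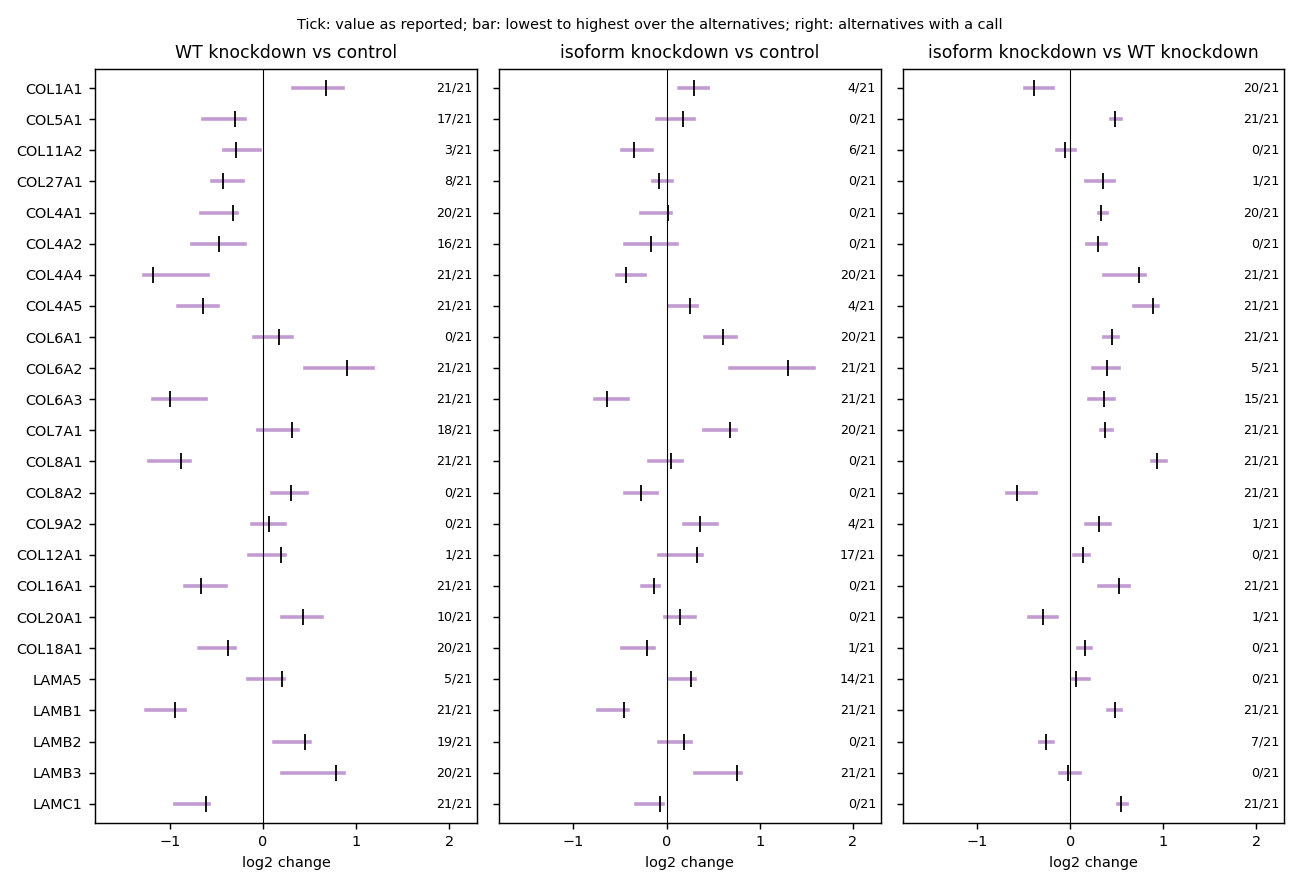
Log2 change of the 24 genes as reported (ticks) and its range over 21 alternative settings, single-array omissions included (bars), with the number of alternatives that made a call at the right of each panel. LAMB1 was called under 21 of 21 in all 3 panels, and COL8A1 and LAMC1 under 21 of 21 in the first and last; COL27A1, COL20A1 and COL11A2 lost their calls under many.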

How the data were processed

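RNA of 9 samples was labelled with biotin and read on 1-colour Illumina arrays. Per the file headers, the deposited signal table gives an average intensity per probe beside its detection p-value, and states no normalization. The authors' second table has log2 values with nearly equal distributions on all arrays. Per the submitters' processing notes R 3.1.0 was used in an unstated role; no source used here names the scanner software. Control replicate 2 equals the mean of replicates 1 and 3 (tolerance 1e-06) and was left out of the fit. The knockdown rows stood in another order than their probe IDs (rank correlation with the authors' log2 values between -0.00219 and 0.000506) and were put back by their ranks on the 6 arrays, which matched each of the 47231 rows to 1 probe. So the probe named for a knockdown value is the one that this match gave.

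Signals of 8 arrays were normalized with neqc (normexp with detection p-values, offset 16, quantile, log2) and fitted with limma 3.58.1 under R 4.3.3 (lmFit and eBayes, with 5 residual degrees of freedom and 4.5 from the prior) over the 20680 probes detected at p under 0.05 on every array of at least 1 group. The median probe had an SD of 0.0809 among controls, 0.119 among WT knockdown arrays and 0.111 among isoform knockdown arrays. A fold beside a group with no detected array is a bound ("at least"): on each array of that group the probe is set to the dimmest detected probe if it lies below it. Symbols came from the platform annotation (30113 probes with 1 symbol, 8 with several, 17110 with none). Values on every array are given for genes called with a change of at least 0.58 and for the 4 brightest; of other lists, up to 4 genes with the smallest adjusted p per comparison are named, with NID1, SPARC and the marker genes added after their values were seen. The genes and lists were chosen with earlier results of these data known. The fit was tested on simulated data. The values and counts of the collagen and laminin genes were recomputed with other filters, scalings, background corrections, variance models and probe choices, on the authors' log2 values, over all 9 columns, with a replicate block and without each array; the other gene lists were recomputed only under the 2 median scalings. The fit over all 9 columns counts control replicate 2, the mean of the other controls, as a replicate, so it understates the spread of the controls. Omissions of an array outside the 2 groups compared count among the 21 alternatives too. Same-numbered arrays of different groups did not deviate together (correlations from -0.03 to 0.06), so the numbers were not taken as pairs.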

Additional observations from a re-analysis of the deposited data

How the results depend on the processing

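With arrays scaled to the median of all probes, 6 genes were called in the isoform knockdown against control in place of 10, beside 8016 probes in place of 9353. Between the knockdowns 11 genes were called in place of 13, beside 5155 probes in place of 7784. The cause was not tested. Without control replicate 1, fewer genes and fewer of all probes were called in the WT knockdown, in a fit with 1 control assumed to vary like the other groups. Leaving out each array in turn gave 11 to 18 genes in the WT knockdown, 7 to 10 in the isoform knockdown and 12 to 14 between them, and 9265 to 11701, 6237 to 9596 and 6353 to 7280 probes. The count above background was 24, with 22 at a detection p under 0.01, 25 when any probe of a gene counted (COL1A2 added) and 24 with all 9 columns. A called direction turned for COL7A1 in the WT knockdown under median scaling (-0.05) and for COL12A1 in the isoform knockdown when its detected probes were averaged (-0.08). Median scaling over the probes above background, added after seeing the data, gave 16, 9 and 14 called genes in the 3 comparisons. Beside them 11706, 9436 and 7142 of 20680 probes were called, and COL7A1 had 0.20 in the WT knockdown. With the replicate number as a block, 18, 10 and 14 genes were called, beside 11214, 8490 and 7326 of 20680 probes. COL5A1 in the WT knockdown then lost its call (-0.27, adjusted p = 0.0687, limma). COL11A2 in the WT knockdown (-0.30) and COL6A2 between the knockdowns (0.40) gained one. Sizes of dim genes depended on the background correction: with an offset of 50, COL4A4 had -0.62 in the WT knockdown in place of -1.18. Probes detected on every array of no group were not tested.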
